A study of Mus musculus with 2207 samples.

Results

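The nuclei described here are GABAergic neurons of mouse cortex in which *Vip* or *Lamp5* was the leading subclass gene. They were chosen by 6 genes: a nucleus labelled as a neuron was taken when its *Gad1* RPKM (reads per kilobase of gene, scaled to the mapped reads of the nucleus) was above its *Slc17a7* RPKM and when *Vip* or *Lamp5* was above 0 and had the largest RPKM of *Sst*, *Pvalb*, *Vip* and *Lamp5*. This gave 39 nuclei led by *Vip* and 83 led by *Lamp5*, called *Vip*-led and *Lamp5*-led nuclei and, as one class, members, out of 1664 neurons and 2207 nuclei in all. GABA neurons, those with *Gad1* above *Slc17a7*, numbered 333. Those that were no members were led by *Sst* or *Pvalb*, except for 28 in which none of the 4 genes was above 0. In the mm10 genome, *Vip* lies at chr10:5639218-5647617 on the plus strand, *Lamp5* at chr2:136052239-136069917 on the plus strand and *Adarb2*, the gene used to check the name, at chr13:8202866-8768747 on the plus strand (GENCODE M21).

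Cortical interneurons release GABA, made by the enzymes encoded by *Gad1* and *Gad2*, and hold the activity of neighbouring neurons in check. Most are born in the medial ganglionic eminence, which gives the *Sst* and *Pvalb* types through the transcription factors *Lhx6* and *Sox6*, or in the caudal ganglionic eminence, which gives the *Vip* and most of the *Lamp5* types through factors such as *Prox1* and the nuclear receptors *Nr2f1* and *Nr2f2*. *Vip* interneurons mostly inhibit other interneurons and so release excitatory neurons from inhibition. *Lamp5* interneurons include the neurogliaform cells of the upper cortical layers, which release GABA diffusely around their dense axons.

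Single nuclei were sorted into wells and read by RamDA-seq, a full-length method for total RNA, in 6 pools of 3 mice each. All mice were C57BL/6 (C57BL6/J in the study's methods) and 14 weeks old. They had been given tamoxifen by mouth in 2 doses (100 mg/kg each) from 3 weeks of age, a week apart per the methods. On 96-well plates there were a WT pool (Ehmt1+/+) and an Ehmt1delta/+ pool, heterozygous for a deletion in *Ehmt1*, which encodes the histone H3 lysine methyltransferase GLP; the plots write it Ehmt1Δ/+. On 384-well plates there were 4 pools that all carried *Ehmt1* iTg, a transgene that makes FLAG-tagged GLP only after Cre recombination: WT (Ehmt1+/+; *Ehmt1* iTg without CamKII-CreER, per the labels), Ehmt1delta/+ (Ehmt1delta/+; *Ehmt1* iTg without CamKII-CreER), iTg (Ehmt1+/+; *Ehmt1* iTg; CamKII-CreER) and Ehmt1delta/+; iTg (Ehmt1delta/+; *Ehmt1* iTg; CamKII-CreER). The study's own text gives CamKII-CreER for all genotypes of the latter plate format. This differs from the labels, which were followed here, so a pool called one without CamKII-CreER is so by its label only. The CamKII promoter drives Cre mainly in excitatory forebrain neurons, so the transgene was not aimed at interneurons. Which of the 3 mice a nucleus came from is not in the labels. For this reason the pool is the sample in every comparison, each genotype has 1 pool per plate format, and p-values measure only the spread between pools.

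The members held a median of 292584 recovered reads, from 58638 to 539986. Their pool medians were 345856 and 359121 reads on 96-well plates (WT and Ehmt1delta/+) and ran from 165977 in the Ehmt1delta/+; iTg pool to 320325 in the 384-well WT pool. The *Sst*- or *Pvalb*-led nuclei were deeper, with a median of 375786 reads. *Gad1*, which oligodendrocytes should lack, was above 0 in 42 of 73 oligodendrocyte nuclei (57.5%) of the 96-well WT pool, at a median of 441701 reads, and in 92 of 397 over all pools, at a median of 69241 reads. The source of these reads was not tested.

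The genes of the rule are given as a description only, without a test. In *Vip*-led nuclei the mean *Vip* level was 488 RPKM in the 96-well WT pool, 515 in 96-well Ehmt1delta/+, 247.9 in 384-well WT, 550 in 384-well Ehmt1delta/+, 214.7 in iTg and 435 in Ehmt1delta/+; iTg, with single nuclei from 0.834 to 1175 RPKM. All 6 pools were thus above 200 RPKM, against 0.691 RPKM or less in *Lamp5*-led nuclei. In *Lamp5*-led nuclei the mean *Lamp5* level was 33.6, 57.1, 65.9, 21.2, 55.7 and 35.96 RPKM in the same order of pools, and single nuclei ran from 0.773 to 160 RPKM. *Lamp5*, which encodes a lysosome-associated membrane protein, is also found outside interneurons: it was above 0 in 951 of 1324 excitatory neurons, at 18.8 ± 2.32 RPKM (mean ± SD, n = 6 pools), whereas *Vip*, a neuropeptide gene, was above 0 in 42 of them. At the edge of the rule, the member with the smallest excess of *Gad1* had 0.823 RPKM of *Gad1* and 0.583 of *Slc17a7*, and the neuron just outside had 4.57 and 7.02. The member with the narrowest lead had 11.96 RPKM of its leading gene and 11.2 of the next, and the GABA neuron just outside had 14.4 and 14.3.

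*Adarb2*, which encodes an RNA-editing enzyme family member and marks interneurons of the caudal ganglionic eminence, was not used by the rule and served as the check of the name. *Vip*-led nuclei carried it throughout: *Adarb2* was above 0 in 39 of 39, with pool means of 272.8, 313, 213.1, 232.8, 258.9 and 198.9 RPKM (248.2 ± 41.9, SD, n = 6 pools). *Lhx6*, the factor of the medial lineage, was above 0 in 0 of 39 *Vip*-led nuclei, which allows a share of up to 7.69%. In 1 *Vip*-led nucleus of the 96-well WT pool, *Adarb2* was at 0.0434 RPKM with *Vip* at 4.19 RPKM. A value above 0 alone is not particular to these nuclei. *Adarb2* was above 0 in 28.6% (iTg) to 44.5% (96-well WT) of the excitatory neurons of a pool and in 77 of 397 oligodendrocyte nuclei.

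*Lamp5*-led nuclei were of 2 kinds by the same check, and the name holds for only part of them. *Adarb2* was above 0 in 64 of 83, and pool means were 53.2, 140.8, 49.9, 10.5, 48.8 and 34.9 RPKM, lowest in the 384-well Ehmt1delta/+ pool. In 43 of the 83 nuclei the level of *Rgs9*, a regulator of G protein signalling known from striatal projection neurons, was at or above that of *Adarb2*, and in 1 of these both genes were at 0. In the other 40 *Adarb2* was above *Rgs9*. This split was chosen after its values were seen, so no test is made of it. By pool, 7, 5, 7, 12, 4 and 8 nuclei fell on the *Rgs9* side and 5, 9, 13, 1, 5 and 7 on the *Adarb2* side, so a single nucleus of the latter kind was found in the 384-well Ehmt1delta/+ pool.

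The 40 *Lamp5*-led nuclei with *Adarb2* above *Rgs9* carried genes of the *Lamp5* class and *Prox1* of the caudal lineage. *Kit*, a receptor tyrosine kinase, was above 0 in 31 of 40, *Reln*, the secreted glycoprotein reelin, in 31, *Prox1* in 31, *Npy*, the neuropeptide Y gene, in 29 and *Ndnf*, a secreted factor of layer 1 interneurons, in 19. *Kit* was above 0 in 31 of 39 *Vip*-led nuclei too, so it does not set the 40 apart from them. The median *Lamp5* level of the 40 was 73.4 RPKM (0.773 to 160). The 43 nuclei on the *Rgs9* side had a median *Lamp5* level of 10.7 RPKM (1.23 to 86.9). *Kit*, *Prox1* and *Ndnf* were above 0 in 3 of 43 each and *Npy* in 2, but *Reln* in 18 of 43 (41.9%). *Gad2* was above 0 in all 43, at 40.3 ± 16.4 RPKM, against 110 ± 27.9 RPKM in the other 40 (SD, n = 6 pools, 1 of which held a single nucleus in the latter).

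*Rgs9* reached 156.9, 264.9, 205.9, 195.5, 187.6 and 258.4 RPKM in these 43 nuclei (pool means, 211.5 ± 42.2, SD, n = 6 pools), where the pool means of the other 40 ran from 0 to 14.3 RPKM. Further genes of the striatal projection neuron genes, a list of 10 assembled after these values were seen, went with it. *Rgs9* itself is on this list, so the split favours the counts and sums over the list given below. *Adcy5*, an adenylyl cyclase, was above 0 in 43 of 43, *Ppp1r1b*, which encodes DARPP-32, in 32, and *Meis2*, a homeobox factor, in 28. Of the dopamine receptor genes, *Drd1* alone was above 0 in 28, *Drd2* alone in 10, both in 2 and neither in 3. At least 5 of the 10 genes were above 0 in 36 of the 43 nuclei (83.7%), in 2 of the other 40, in 1 of 39 *Vip*-led nuclei and in 16.5% of *Sst*-led and 4.05% of *Pvalb*-led nuclei. The summed level of the list averaged 758 RPKM in the 43 (14.7 to 1838), 54.4 RPKM in the 40 (4.60 to 291.25) and 31.5 RPKM in *Vip*-led nuclei (6.52 to 89.6); *Isl1* and *Drd3* were at 0 in every *Vip*-led nucleus and in all of the 40. These 43 nuclei are therefore called here only by the rule and by *Rgs9*. The shares and the main counts of calls are also given without them. The *Ehmt1* and *Ehmt2* levels, the *Casp1* counts and the marker sums of *Lamp5*-led nuclei below include them.

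**Figure D1:**
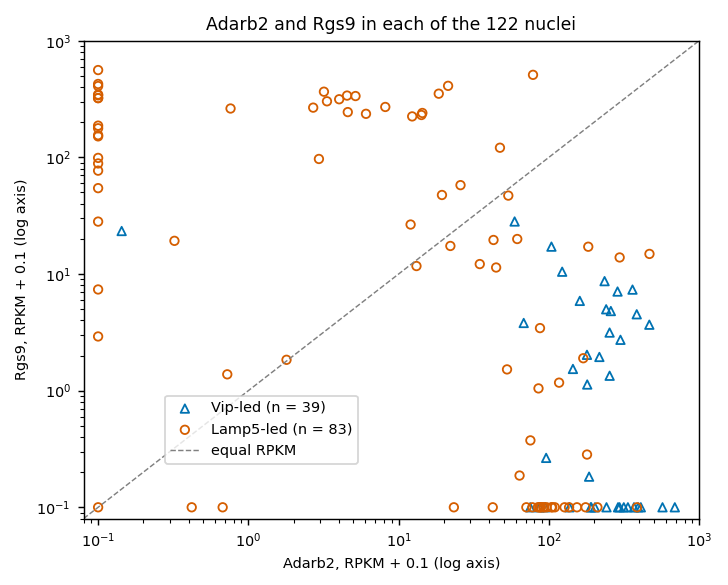
*Adarb2* (x axis) against *Rgs9* (y axis) in each *Vip*- or *Lamp5*-led nucleus, both as RPKM + 0.1 on log axes; triangles are *Vip*-led and circles *Lamp5*-led nuclei, and the dashed line marks equal levels. All but 1 of the 39 triangles lie below the line, while 43 of the 83 circles lie on or above it.

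Of the marker lists of other cells, the oligodendrocyte genes summed to a mean of 10.2 RPKM in *Vip*-led nuclei (0 to 37.5) and 16.3 RPKM in *Lamp5*-led nuclei (0 to 437). The microglia genes summed to 1.37 RPKM (0 to 10.4) and 2.36 RPKM (0 to 14.9), with *Ctss*, *C1qa* and *Tmem119* at 0 in both, and the endothelial genes to 0.0356 RPKM (0 to 0.749) and 0.192 RPKM (0 to 3.27). The astrocyte genes summed to 25.7 and 30.4 RPKM. The oligodendrocyte precursor genes summed to 3.87 RPKM in *Vip*-led nuclei (0 to 90.4) and 23.1 RPKM in *Lamp5*-led nuclei, where 1 nucleus on the *Adarb2* side had 1073.5 RPKM. The excitatory neuron genes summed to 103.5 RPKM in *Vip*-led nuclei (18.4 to 200) and 106.65 RPKM in *Lamp5*-led nuclei (19.9 to 269.01), of which *Slc17a7* gave 1.20 and 1.18 RPKM.

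*Ehmt1*, the targeted gene, was read in every *Vip*- or *Lamp5*-led nucleus. Its mean level was 18.96 RPKM in 96-well WT against 36.96 in 96-well Ehmt1delta/+, 21.5 in 384-well WT against 39.3 in 384-well Ehmt1delta/+, and 22.9 in iTg against 35.7 in Ehmt1delta/+; iTg. The 3 pools labelled Ehmt1delta/+ were thus above the other 3, the opposite direction to a loss of 1 copy, as also in excitatory neurons (30.5 to 33.995 RPKM against 17.8 to 20.3 RPKM). A level over the whole gene does not show the deleted part, so genotypes are named by their labels, and every genotype difference has its direction from those labels. The level of *Ehmt2*, whose product G9a forms a complex with GLP, was 36.3, 31.2, 82.7, 63.6, 90.4 and 58.8 RPKM in the 6 pools, lower on 96-well plates than on 384-well plates. The iTg pool did not stand above 384-well WT for *Ehmt1* by more than the distance between the WT pools (22.9 against 21.5 and 18.96 RPKM).

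**Figure D2:**
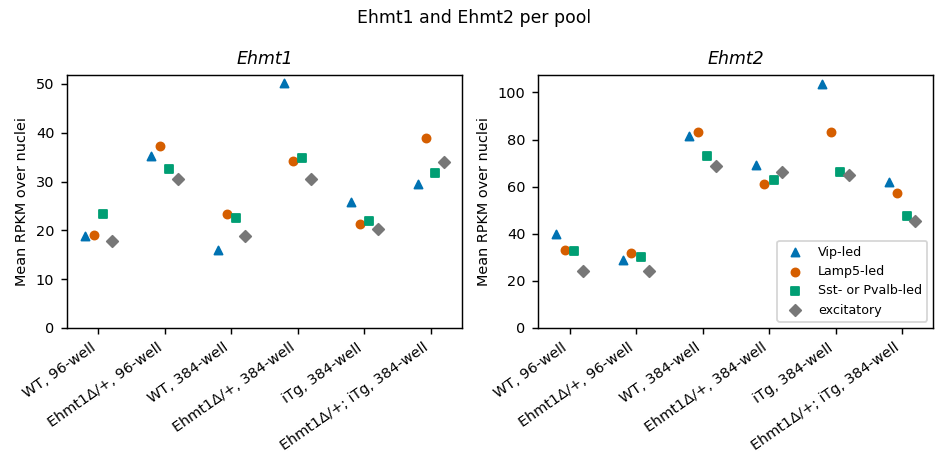
Mean *Ehmt1* (left) and *Ehmt2* (right) level per pool in RPKM, with 1 symbol per class of neurons. *Ehmt1* in *Vip*- and *Lamp5*-led nuclei as one class was 35.7 to 39.3 RPKM in the 3 pools labelled Ehmt1delta/+ and 18.96 to 22.9 RPKM in the others, while *Ehmt2* separated the plate formats.

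The share of *Vip*- or *Lamp5*-led nuclei among neurons overlapped between Ehmt1delta/+ pools and the others. They were 22 nuclei in 96-well WT (8.70% of the neurons of the pool, exact Clopper-Pearson 95% interval 5.53 to 12.9), 17 in 96-well Ehmt1delta/+ (6.42%, 3.78 to 10.1), 27 in 384-well WT (9.47%, 6.34 to 13.5), 19 in 384-well Ehmt1delta/+ (6.21%, 3.78 to 9.53), 14 in iTg (5.09%, 2.81 to 8.39) and 23 in Ehmt1delta/+; iTg (8.21%, 5.28 to 12.1). The intervals, which cover counting error only, all overlap. The 3 Ehmt1delta/+ pools averaged 6.95% ± 1.10 and the 3 others 7.75% ± 2.34 (SD, n = 3 pools each), a difference of -0.81 percentage points (exact permutation within plate format, two-sided p = 0.667). With 12 arrangements the smallest p this design can give is 0.167, so no share could pass 0.05. In a further step, shallow neurons were left out and the others thinned to 1 number of reads per plate format. The difference was then -2.74 points (5.27% ± 1.06 against 8.01% ± 1.48, exact permutation p = 0.167, the smallest possible). This step left out 12 of the 23 members of the Ehmt1delta/+; iTg pool but 1 of the 14 of iTg. The part of the left-out nuclei in the change was not tested. The thinned shares were 9.36%, 6.49%, 8.24%, 4.64%, 6.43% and 4.68% in the order of pools, so that within each plate format those of Ehmt1delta/+ pools were the lower ones. With only the nuclei whose *Adarb2* was above *Rgs9*, and without thinning, the difference was -1.34 points (exact permutation p = 0.5). The sample titles carry a code, whose meaning is not given in the sources used here. On 384-well plates the WT pool had a code of its own, while the other pools shared another. There, a difference of WT from another pool cannot be told apart from one between codes. Within the 3 codes of the 96-well format that held both genotypes, the difference was 0.40, -5.06 and -3.86 points, with 1 to 8 members per code and genotype.

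The *Vip*-led share was 3.95%, 1.13%, 2.46%, 1.96%, 1.82% and 2.86% of neurons in the 6 pools and the *Lamp5*-led share 4.74%, 5.28%, 7.02%, 4.25%, 3.27% and 5.36%. Both sets overlap between genotypes. Counted among GABA neurons, the shares of *Vip*- or *Lamp5*-led nuclei were 35.5%, 39.5%, 36.99%, 36.5%, 26.4% and 46%, or 40.7% ± 4.84 in Ehmt1delta/+ pools and 32.96% ± 5.72 in the others (SD, n = 3 pools each; exact permutation p = 0.333). The difference of 7.73 points was 0.84 points (exact permutation p = 1) with only the nuclei whose *Adarb2* was above *Rgs9*, and -1.63 points (exact permutation p = 0.333) with thinned reads, a step that left out 26 of the member nuclei, 12 of them in the Ehmt1delta/+; iTg pool. The denominator moved too: *Sst*- or *Pvalb*-led nuclei were 8.84% ± 0.852 of neurons in Ehmt1delta/+ pools and 13.3% ± 0.823 in the others (SD, n = 3 pools each), without overlap within either plate format (exact permutation p = 0.167, the smallest possible). The part of this in the shares above was not tested.

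**Figure D3:**
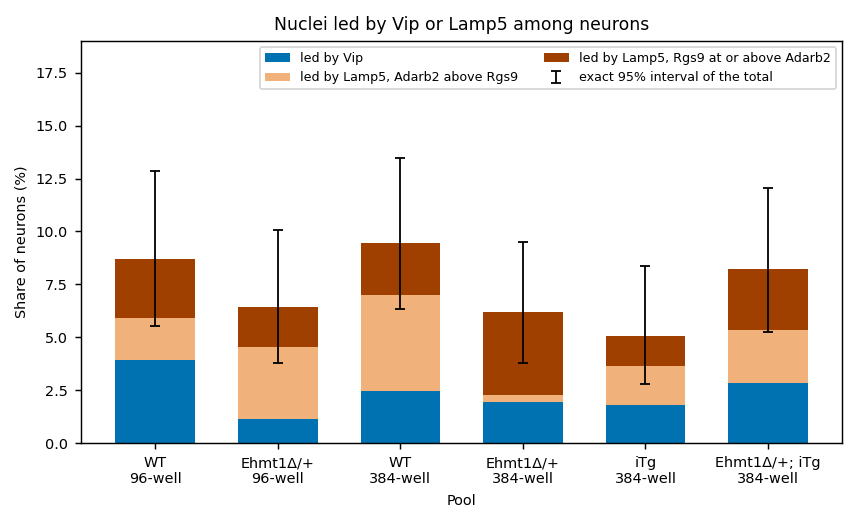
Share of neurons (%, y axis) that were led by *Vip* or *Lamp5* in each of the 6 pools (x axis), with the *Lamp5*-led nuclei split by *Adarb2* against *Rgs9*; error bars are exact 95% intervals of the total. Totals ran from 5.09% in iTg to 9.47% in 384-well WT, and the intervals of all pools overlap.

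Set against the *Sst*- or *Pvalb*-led nuclei of the same pools, *Vip*- or *Lamp5*-led nuclei had higher levels of the caudal lineage genes and lower levels of the medial lineage genes. The comparison was made by limma on log2(mean RPKM + 0.1) with the pool as a block (6 pools, 25067 genes besides those of the rule). Of all genes, 1103 were higher (4.4%) and 1225 lower (4.89%) in *Vip*- or *Lamp5*-led nuclei at adjusted p below 0.05 (Benjamini-Hochberg), with a median difference over all genes of -0.06. In all 6 pools alike 9.02% of the genes were higher and 10.6% lower, and each gene named below as among the highest or lowest had 1 direction in all 6. Of the 13 caudal lineage genes 9 rose and 0 fell (median 2.61), and of the 15 medial lineage genes tested 0 rose and 9 fell (median -1.78). Without the 43 *Lamp5*-led nuclei on the *Rgs9* side and the 1 *Vip*-led nucleus like them, 618 of all genes were called higher (2.45%) and 1027 lower (4.07%), and the counts of the lists were 9 and 0 of 13 and 0 and 7 of 15. *Adarb2*, 1 of the 13, is favoured there by the choice of nuclei. The *Sst*- or *Pvalb*-led nuclei were the deeper class, as given above, and the part of depth in these counts was not tested.

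*Egfr*, the epidermal growth factor receptor, had the highest of these differences. Its level in *Vip*- or *Lamp5*-led nuclei was 23.5, 28.8, 20.4, 11.9, 36.04 and 13.03 RPKM in the 6 pools, and it did not exceed 0.0757 RPKM in *Sst*- or *Pvalb*-led nuclei, a log2 difference of 7.34 (SE 0.338, adjusted p = 0.000937). It was read in 33 of 39 *Vip*-led nuclei and 30 of the 40 *Lamp5*-led nuclei with *Adarb2* above *Rgs9*, but in 1 of the other 43. *Egfros*, which lies within *Egfr* on the opposite strand, so that their reads cannot be told apart, had a log2 difference of 5.94.

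*Prox1*, the homeobox factor that caudal interneurons need to mature, was at 14.9, 15.8, 25.3, 15.7, 26.3 and 29.5 RPKM, with 0 to 3.65 RPKM in *Sst*- or *Pvalb*-led nuclei, so the pools of the classes did not overlap (log2 difference 5.03, SE 0.640, adjusted p = 0.00803). *Prox1os*, which overlaps its start on the opposite strand, stood at 5.31. *Adarb2* was 80.7 to 171.2 RPKM in members and 2.13 to 20.4 RPKM in *Sst*- or *Pvalb*-led nuclei (log2 difference 4.40, SE 0.438, adjusted p = 0.0044). Further caudal lineage genes rose by less: *Igf1*, an insulin-like growth factor, by 2.61, *Cnr1*, the cannabinoid receptor, by 2.01, *Zbtb16* by 1.51, *Nr2f2* by 1.49 and *Nr2f1* by 0.74. *Cxcl14*, a chemokine gene, rose by 5.25 (SE 0.675), with pool means between 4.67 and 37.6 RPKM. *Htr3a*, the ionotropic serotonin receptor of caudal interneurons, did not pass (log2 difference 4.41, SE 1.38, adjusted p = 0.10): its *Vip*-led levels were 15.9, 6.20, 138.3, 208.7, 100.9 and 12.3 RPKM, so the pools spread widely.

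The genes of the 2 member classes did not all go with the members. Of 14 *Vip* class genes tested 7 rose and 0 fell (median 2.37), among them *Calb2*, *Pthlh*, *Slc5a7* and *Nrp1*, a semaphorin receptor gene. Of 15 *Lamp5* class genes 6 rose, among them *Kit* by 4.38 (30.997 ± 9.58 against 1.45 ± 0.813 RPKM, SD, n = 6 pools), and 2 fell, *Nxph1* and *Eya4* (median 0.79). Without the 43 nuclei the counts were 7 and 0 of 15 and 5 and 1 of 16.

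The other genes with the highest differences were *Tac2*, which encodes neurokinin B (5.41, SE 0.979, adjusted p = 0.0215), *Hgfac* (5.16), *Arsi* (4.89), the secreted matrix protein gene *Ccn3* (4.85) and *Frem1* (4.69). *Tac2* was read in 17 of 39 *Vip*-led nuclei and 4 of 83 *Lamp5*-led nuclei.

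The genes with the lowest differences included regulators of the medial lineage. *Sox6* was at 0 to 1.38 RPKM in *Vip*- or *Lamp5*-led nuclei against 8.61 to 14.96 RPKM in *Sst*- or *Pvalb*-led nuclei (log2 difference -4.85, SE 0.522, adjusted p = 0.00550), and was read in 8 member nuclei. *Lhx6* was lower by a log2 difference of -3.84 (SE 0.399, adjusted p = 0.00511), with 0.991 to 10.5 RPKM against 22.1 to 48.7 RPKM. All of its reads in members came from *Lamp5*-led nuclei, 5 with *Adarb2* above *Rgs9* and 3 others. *Satb1*, a chromatin organiser of medial interneurons, stood at -3.57, and the potassium channel genes of fast firing *Kcnc1* and *Kcnc2* at -0.94 and -1.91. *Kcnc1* was not called without the 43 nuclei. *Sox6os*, which lies within *Sox6* on the opposite strand and whose reads cannot be told from those of *Sox6*, stood at -6.03.

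Outside the regulators, *Lama4*, a laminin chain, was at 0.232 RPKM or less in members and 6.12 to 9.73 RPKM in *Sst*- or *Pvalb*-led nuclei (-5.61, SE 0.332). *Crhbp*, which binds corticotropin-releasing hormone, stood at -5.55 (SE 0.638) and the delta opioid receptor gene *Oprd1* at -3.99 (SE 0.683). *Oprd1* was read in 1 of 39 *Vip*-led nuclei, 3 of the 40 *Lamp5*-led nuclei with *Adarb2* above *Rgs9* and 20 of the other 43. *Grhl3* (-4.63), *Moxd1* (-4.43), *Lypd6b* (-4.30) and *Mypn* (-4.03) were also among the 10 lowest, and *Tcn2*, a transport protein gene for vitamin B12, was listed at 0 in every member and at 2.73 ± 1.48 RPKM in *Sst*- or *Pvalb*-led nuclei (SD, n = 6 pools).

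**Figure D4:**
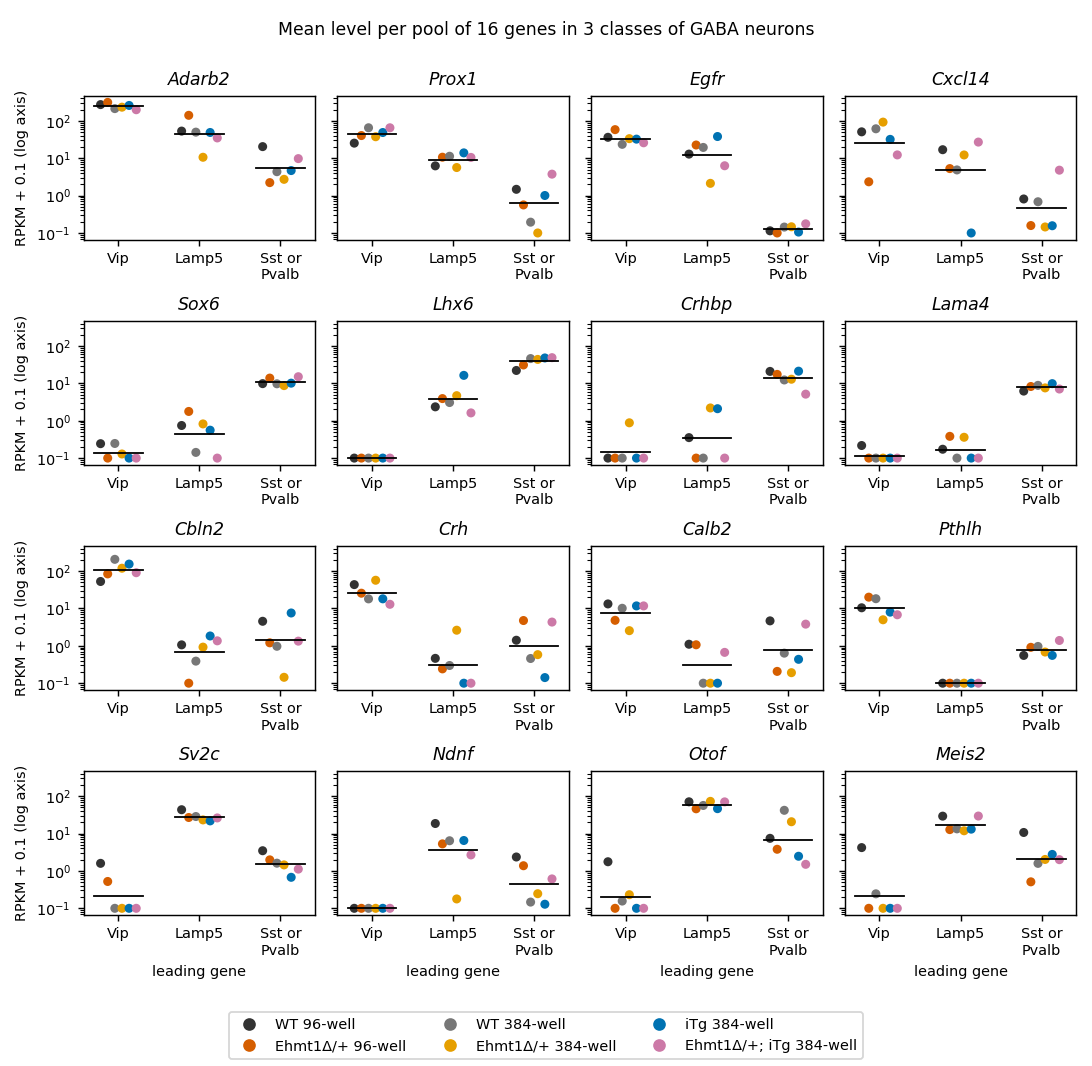
Mean level per pool (RPKM + 0.1, log axis) of 16 genes in *Vip*-led, *Lamp5*-led and *Sst*- or *Pvalb*-led nuclei; each point is 1 of 6 pools and the bar is their mean on the log scale. *Egfr*, *Prox1* and *Adarb2* stood higher in both member classes, *Sox6*, *Lhx6*, *Crhbp* and *Lama4* in *Sst*- or *Pvalb*-led nuclei, *Cbln2*, *Crh*, *Calb2* and *Pthlh* in *Vip*-led nuclei, and *Sv2c*, *Ndnf*, *Otof* and *Meis2* in *Lamp5*-led nuclei, where part of the *Otof* and *Meis2* level came from the nuclei with *Rgs9* at or above *Adarb2*.

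Signalling genes were mixed. Of the 12 neuropeptide genes tested 2 rose, *Tac2* and *Penk*, the enkephalin precursor (48.9 ± 24.9 against 3.05 ± 2.15 RPKM, SD, n = 6 pools), and 2 fell, *Cort*, which was not called without the 43 nuclei, and *Crhbp*. *Penk* is also a gene of striatal projection neurons, and it still passed without the 43 nuclei. *Pnoc* was then called higher, and *Tac1* and *Pdyn* lower, in addition. Of the 14 neuropeptide receptor genes 3 rose and 1 fell: *Npy1r*, a receptor of neuropeptide Y, by 3.33, *Vipr1*, a receptor of *Vip* itself, by 3.49 and *Sstr4*, a somatostatin receptor, by 1.14, while *Oprd1* fell. *Vipr1* was not called without the 43 nuclei, while *Cckbr* was called lower. Of the 12 serotonin and acetylcholine receptor genes 4 rose, the nicotinic subunits *Chrna5* (3.99), *Chrna7* (1.53) and *Chrna4* (1.01) and the muscarinic receptor gene *Chrm1* (0.94), and 3 fell, *Chrm2* (-3.02), *Htr1a* (-2.19) and *Chrm3* (-0.86). *Chrm1* and *Chrm3* were not called without the 43 nuclei.

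Of the 9 GABA synthesis and transport genes tested 2 rose, *Gad2* by 0.75 (SE 0.165) and the transporter gene *Slc6a11*, and 0 fell. *Gad2* was not called without the 43 nuclei, while *Dlx1* and *Dlx2* were called higher. Of the 12 GABA-A receptor subunit genes 3 rose, among them *Gabra5* by 1.15 and *Gabra2* by 0.88. Without the 43 nuclei 0 rose and 1 fell (*Gabrd*). Of the 13 activity-regulated genes, induced when neurons fire, 4 rose, *Egr3* by 2.11, *Inhba* by 1.80, *Nr4a1* by 1.55 and *Egr1*. Of these *Nr4a1* and *Inhba* were called without the 43 nuclei. Of the 15 genes of G9a/GLP and H3K9 methylation 0 rose and 0 fell, with differences of 0.04 for *Ehmt1* (SE 0.124, adjusted p = 0.882) and 0.19 for *Ehmt2* (SE 0.119, adjusted p = 0.364).

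Of the marker lists of other cells, 0 of 5 oligodendrocyte genes, 0 of 2 microglia genes and 0 of 1 endothelial genes passed. Of 7 excitatory neuron genes 1 rose, *Camk2a*, a kinase subunit gene that striatal projection neurons also use (0.85, SE 0.131; not called without the 43 nuclei), and of 5 astrocyte genes 1 rose, the glutamate transporter gene *Slc1a2* (2.33), and 1 fell, *Gfap* (-1.38), whose mean was 0.269 RPKM or less in both classes. The oligodendrocyte precursor gene *Vcan* rose, as the 1 gene of its list tested. Without the 43 nuclei *Pdgfra* of this list was tested too, and both were called higher.

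Within the members, fewer genes were called between *Vip*-led and *Lamp5*-led nuclei than between members and *Sst*- or *Pvalb*-led nuclei. Both classes compared here held fewer nuclei in every pool than the classes compared above. The part of these smaller numbers in the lower count was not tested, so the counts do not show which classes were more alike. With the pool as a block, limma called 919 of 24727 genes, of which 638 (2.58% of all) were lower in *Vip*-led nuclei and the rest higher (1.14%), with a median over all genes of -0.15. In all 6 pools alike 4.95% were higher and 7.66% lower, and each gene named below as among the highest or lowest had 1 direction in all 6. With only the nuclei whose *Adarb2* was above *Rgs9*, the 384-well Ehmt1delta/+ pool dropped out for having 1 *Lamp5*-led nucleus left, and 88 genes were called in 5 pools, 29 higher (0.116% of those tested) and 59 lower (0.237%). The part of the 43 nuclei and that of the smaller number of nuclei and pools in this drop cannot be told apart.

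Genes of the *Vip* class stood higher in *Vip*-led nuclei: 6 of 16 tested rose and 0 fell (median 3.54), and 2 of 16 without the 43 nuclei. *Pthlh*, the gene of parathyroid hormone-related protein, was at 10.3, 19.97, 18.2, 4.89, 7.89 and 6.69 RPKM in *Vip*-led nuclei and was listed at 0 in each of the 83 *Lamp5*-led nuclei (adjusted p = 0.00103). It was read in 21 of 39 *Vip*-led nuclei. *Grpr*, the receptor of gastrin-releasing peptide, was at 17.4, 9.96, 4.12, 8.70, 11.4 and 9.26 RPKM and was read in 31 of 39 *Vip*-led nuclei but 1 of 83 *Lamp5*-led nuclei (log2 difference 6.48, SE 0.315, adjusted p = 0.00098). *Crh*, corticotropin-releasing hormone, was at 43.4, 25.5, 17.97, 56.8, 18.02 and 12.8 RPKM, above the highest *Lamp5*-led pool of 2.52 RPKM in each case (6.36, SE 0.422, adjusted p = 0.00194). *Pthlh*, *Grpr*, *Crh* and the phospholipid phosphatase gene *Plpp2* (5.92, SE 0.549) kept their calls without the 43 nuclei.

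*Cbln2*, a secreted organiser of synapses, was read in 36 of 39 *Vip*-led nuclei and 7 of 83 *Lamp5*-led nuclei. Its log2 difference was 7.31 (SE 0.617, adjusted p = 0.00427), with 52.6 to 206.5 RPKM against 0 to 1.74 RPKM. The collagen genes *Col15a1* (8.14) and *Col24a1* (5.99) and the laminin gene *Lama3* (7.35) completed the 8 highest. Without the 43 nuclei these 4 had adjusted p from 0.0582 to 0.0823 in 5 pools. *Calb2*, the calcium-binding protein calretinin, and *Slc5a7*, the choline transporter of *Vip* cells that also make acetylcholine, rose too, at 2.45 to 13.1 RPKM and 0.633 to 18.1 RPKM in *Vip*-led pools, and were not called without the 43 nuclei.

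The caudal lineage genes were unequal between the member classes: *Prox1* was 25.3 to 65.4 RPKM in *Vip*-led pools and higher than in *Lamp5*-led nuclei (log2 difference 2.28, SE 0.240, adjusted p = 0.00695), as were *Adarb2* (2.49, SE 0.423, adjusted p = 0.0290) and *Igf1* (3.46, adjusted p = 0.00965). None of these was called without the 43 nuclei, where 0 of the 13 caudal lineage genes passed and *Adarb2* had an adjusted p of 0.177. That choice of nuclei uses *Adarb2* and takes out *Lamp5*-led nuclei low in it, so a smaller *Adarb2* difference is favoured there and is no separate result. *Npas1*, a transcription factor gene, was at 54.5 to 160 RPKM in *Vip*-led pools and missed the threshold (6.41, SE 1.36, adjusted p = 0.0562).

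Among genes higher in *Lamp5*-led nuclei, *Sv2c*, a synaptic vesicle protein, was the most evenly spread. It was at 43.4, 26.9, 28.5, 23.1, 21.8 and 26.1 RPKM and was read in 74 of 83 *Lamp5*-led nuclei, against 2 of 39 *Vip*-led nuclei (log2 difference -7.05, SE 0.540, adjusted p = 0.00297). Both kinds of *Lamp5*-led nuclei had it, at 35.8 ± 10.9 and 24.5 ± 11.2 RPKM (SD, n = 6 pools). *Lzts1* was likewise read in both, at 7.40 ± 6.69 RPKM with *Adarb2* above *Rgs9* and 23.7 ± 6.87 RPKM otherwise (-6.42, SE 0.496). *Sv2c* and *Lzts1* kept their calls without the 43 nuclei.

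Of the 15 *Lamp5* class genes tested 5 stood higher in *Lamp5*-led nuclei and 1, *Rspo2*, higher in *Vip*-led nuclei (median -3.78). *Ndnf* was listed at 0 in all 39 *Vip*-led nuclei and reached 43.2, 8.09, 9.74, 0, 11.6 and 5.54 RPKM in the *Lamp5*-led nuclei with *Adarb2* above *Rgs9*, where the 0 is that of the single nucleus of the 384-well Ehmt1delta/+ pool. *Hapln1*, a link protein of the extracellular matrix, was read in 26 of these 40 nuclei, in 1 of the other 43 and in 5 of 39 *Vip*-led nuclei. *Ndnf*, *Sv2c* and *Hapln1* were the 3 *Lamp5* class genes called without the 43 nuclei. *Reln* did not pass in all nuclei (-3.56, SE 0.917, adjusted p = 0.0925), with 85 ± 49.6 RPKM in the 40 nuclei, 5.43 ± 3.36 RPKM in the 43 and 6.29 ± 6.71 RPKM in *Vip*-led nuclei. *Npy* was at 21.6 to 1976 RPKM in the 40 nuclei, the highest from the single nucleus, and at 2.21 RPKM or less in the 43.

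The remaining genes with the lowest differences stood high mainly in the 43 nuclei. *Otof*, which encodes otoferlin, was at 115.3 ± 20.7 RPKM in the 43, 4.15 ± 5.58 RPKM in the other 40 and 1.66 RPKM or less in *Vip*-led pools (log2 difference -8.22, SE 0.547, adjusted p = 0.00194). *Ryr1*, a calcium release channel, was at 45.3 ± 27.1 against 1.28 ± 0.843 RPKM, *Fras1* at 38.6 ± 19.7 against 4.93 ± 4.91 RPKM, *Col6a1* at 123.8 ± 81.6 against 17.2 ± 40.8 RPKM and *Meis2* at 28.8 ± 8.55 against 8.72 ± 11.3 RPKM. *Ptprv* was listed at 0 in all *Vip*-led nuclei and was read in 25 of the 43 and 1 of the 40. Without the 43 nuclei *Otof*, *Ryr1*, *Fras1*, *Col6a1* and *Meis2* had adjusted p between 0.171 and 0.609.

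Of the other lists, receptors gave few calls. *Chrna5* and *Chrm3* stood higher in *Vip*-led nuclei and *Htr1f* and *Chrm1* in *Lamp5*-led nuclei, of 11 serotonin and acetylcholine receptor genes; *Npy2r* stood higher in *Vip*-led nuclei and *Sstr3*, *Cckbr* and *Tacr1* in *Lamp5*-led nuclei, of 15 neuropeptide receptor genes. Of these *Tacr1*, the receptor of substance P, was called without the 43 nuclei. Of 13 activity-regulated genes *Arc* stood higher in *Lamp5*-led nuclei, of 12 GABA-A receptor subunit genes *Gabrd*, and of 12 medial lineage genes *Maf* and *Elfn1* stood higher in *Vip*-led and *Calb1* in *Lamp5*-led nuclei. Of 9 GABA synthesis and transport genes and of 15 G9a/GLP and H3K9 methylation genes 0 were called, of 11 neuropeptide genes only *Crh*, and of 8 excitatory neuron genes only *Foxp2*. Without the 43 nuclei *Arc*, *Gabrd*, *Maf*, *Elfn1*, *Calb1* and *Foxp2* were not called. *Lhx6*, not tested with all nuclei, was then called higher in *Lamp5*-led nuclei. It was above 0 in 5 of the 40 and in 0 of 39 *Vip*-led nuclei, so it entered the test through *Lamp5*-led nuclei only. In the oligodendrocyte, microglia, astrocyte, oligodendrocyte precursor and endothelial lists 0 genes passed.

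Ehmt1delta/+ was compared with WT within the members over the 4 pools without CamKII-CreER, with the plate format as a block. Of 25372 genes limma called 0 at adjusted p below 0.05 (0%), the smallest adjusted p being 0.993, and 1163 had an unadjusted p below 0.05 (4.58%). The fit rests on 1 pool per genotype and format, so a gene that missed the threshold is not shown to be alike in both genotypes. On 384-well plates the 2 genotypes also differed in the code of their sample titles. Of all genes 20.9% were higher and 27.5% lower in Ehmt1delta/+ in both plate formats. *Ehmt1* itself was higher by 0.91 (SE 0.357, 95% interval -0.20 to 2.02, adjusted p = 0.993), by 0.96 on 96-well and 0.87 on 384-well plates.

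The genes with the most extreme ratios of 1 direction in both formats, ranked by the smaller ratio, are given as values that did not pass the test. This choice out of all genes tested favours large values, so their size is no sign that they would recur. *Prok2*, a secreted prokineticin, had 1.037 and 7.24 RPKM in WT and Ehmt1delta/+ on 96-well plates and 1.68 and 10.8 RPKM on 384-well plates. *Phlda1* had 1.004 and 5.88 RPKM, then 1.48 and 6.36 RPKM. *Tgfa*, a ligand of the *Egfr* receptor, had 1.07 and 5.20 RPKM, then 1.05 and 4.48 RPKM. *Caskin2*, *Ttyh2*, *Ahr*, *Rasgef1c* and *Plekhg1* had log2 differences of 3.14, 2.88, 1.90, 1.85 and 2.25. In the other direction, *Timm8b*, a mitochondrial import gene, had 7.54 and 1.74 RPKM, then 7.22 and 1.54 RPKM, and *Tmem101* 3.38 and 0.875 RPKM, then 4.53 and 1.16 RPKM. *Pebp4*, *AA645442*, *Snhg9*, *Mxra8*, *Ddt* and *Ephx1* had log2 differences of -3.87, -2.01, -3.24, -2.51, -2.04 and -2.93. The WT members were the deeper ones on 384-well plates (median 320325 reads against 229439), and the part of depth in these ratios was not tested.

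**Figure D5:**
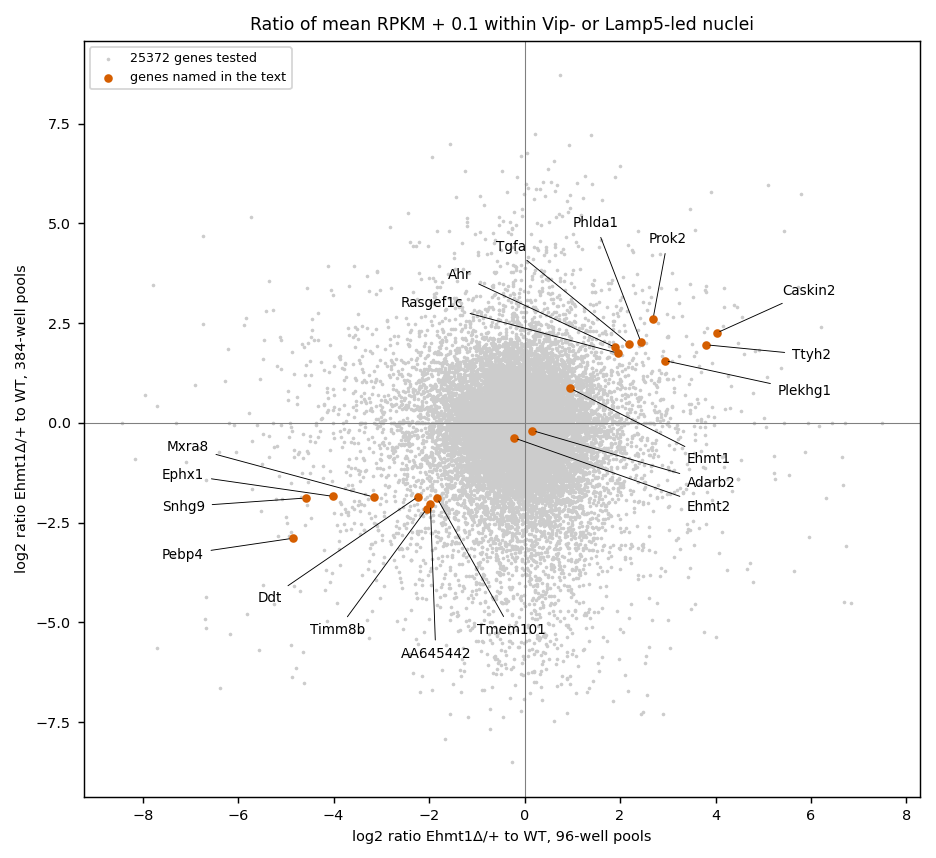
Log2 ratio of mean RPKM + 0.1 in *Vip*- or *Lamp5*-led nuclei, Ehmt1Δ/+ to WT, on 96-well plates (x axis) against 384-well plates (y axis), for 25372 genes (grey) and the genes named in the text (orange). None passed the test; *Ehmt1* lies at 0.96 and 0.87.

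By list, 0 genes passed in any of them. The median log2 difference of the 13 caudal lineage genes was -0.30, of the 15 *Vip* class genes -0.34, of the 15 *Lamp5* class genes -0.27, of the 13 activity-regulated genes -0.33 and of the 12 GABA-A receptor subunit genes 0.07, beside -0.06 over all genes. The 384-well Ehmt1delta/+ pool held 12 *Rgs9*-side and 1 *Adarb2*-side *Lamp5*-led nuclei, and the WT pool 7 and 13, so the mixture of the *Lamp5*-led nuclei differed between the genotypes compared; with only the nuclei whose *Adarb2* was above *Rgs9*, 0 genes were called as well, and the medians of those 5 lists were 0.16, -0.24, -0.35, -0.81 and 0.17.

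*Casp1*, the inflammatory caspase, was above 0 in few of these nuclei: in 2 of 22, 2 of 17, 1 of 27, 1 of 19, 0 of 14 and 1 of 23 over the 6 pools (5.74% in all). It was above 0 in 9.52% of excitatory neurons, in 6.01% of *Sst*- or *Pvalb*-led nuclei and in 0.252% of oligodendrocyte nuclei, at median depths that differ between these classes. With at most 2 nuclei per pool, no difference between genotypes was detectable in *Vip*- or *Lamp5*-led nuclei, and *Casp1* was below the 10% of nuclei needed to enter the tests.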

How the data were processed

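RPKM per gene and nucleus were made and deposited by the authors: per the labels and methods, reads were mapped to mm10 with HISAT2 (2.0.4) and counted over GENCODE genes with featureCounts (Subread 1.5.0) at default, unstranded settings. Nuclei were classed by the authors as neurons. The values are not counts, so no count test was run, although one had been planned where counts were given; read totals per nucleus were recovered from the steps between values and *Sst* (100% of its values whole within 0.01 read), and 68.5% and 74.6% of all values above 0 came out whole in the 96- and 384-well tables.

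RPKM were averaged over the nuclei of each pool and class with at least 3 nuclei and tested as log2(mean + 0.1) with limma (3.58.1, R 4.3.3), Benjamini-Hochberg adjusted, over genes above 0 in at least 10% of nuclei of either group. Fold changes on this scale understate those of low genes. A fitted value against a class at 0 depends on the pseudocount and is not given. Antisense genes cannot be told from their partners without strand. Shares were compared by exact permutation of pools within plate format. Intervals and limits at 0 (3 counts) cover counting error only. The members, gene lists and tests were chosen with earlier results of these data known. Genes named were the 10 highest and 10 lowest called with 1 sign in all pools and at least 1 RPKM (8 and 8 within the members). For genotype they were 8 each way, ranked by the smaller of the log2 ratios of both plate formats with the same sign. These had at least 1 RPKM and were above 0 in 20% of nuclei. Also named were called members of each list and *Ehmt1*, *Ehmt2* and *Casp1*. Lists covered caudal and medial lineage, *Vip* and *Lamp5* classes, neuropeptides, receptors, GABA genes, activity, H3K9 methylation, inflammation and other cell types. Results of some genes are not reported here. The split by *Adarb2* and *Rgs9* and the striatal list came after values were seen. Of the inflammation list 0 of 8 genes passed the filter between classes and 1, *C1s1*, within genotypes. Columns holding identical values numbered 0. The fits were tested on simulated data. Python 3.11.15, pandas 2.3.3 and SciPy 1.17.1 were used.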

Additional observations from a re-analysis of the deposited data

Results flagged for a closer look

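In 3 genes the difference in 1 of the 6 pools stood apart from the other 5, by a gap test that chance passes in about 1 of 20 groups. More genes than these 3 were examined, so some or all of the 3 may have passed by chance. Whether 3 is more than chance would give was not tested. The log2 difference of *Tac2* between *Vip*- or *Lamp5*-led and *Sst*- or *Pvalb*-led nuclei was 0.14 in the Ehmt1delta/+; iTg pool and 5.36 to 7.78 elsewhere; there the *Sst*- or *Pvalb*-led nuclei averaged 15.8 RPKM of *Tac2*, and 1 nucleus had 364 RPKM. That of *Tcn2* was -2.64 in the 96-well WT pool, set against a member level of 0, and lower in the other pools. That of *Otof* between *Vip*-led and *Lamp5*-led nuclei was -5.33 in the 96-well WT pool, where *Vip*-led nuclei averaged 1.66 RPKM.

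The share of *Vip*- or *Lamp5*-led nuclei among neurons moved in opposite directions by genotype. Ehmt1delta/+ minus Ehmt1+/+ was -2.28 percentage points on 96-well plates and -3.26 points on 384-well plates without CamKII-CreER, but 3.12 points with CamKII-CreER. With shallow neurons left out and reads thinned to 1 number, the shares with CamKII-CreER were 6.43% in iTg and 4.68% in Ehmt1delta/+; iTg. The direction there thus turned and was that of the other 2 contrasts. However, this step left out 12 of the 23 members of Ehmt1delta/+; iTg but 1 of the 14 of iTg. It also made members of 3 other nuclei in iTg and of 1 in Ehmt1delta/+; iTg. The part of these uneven changes in the turn was not tested. With 1 pool per genotype the difference between these values was not tested.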

How the results depend on the processing

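No paired analysis was possible because the replicate numbers only name nuclei; the pool or plate format was a block in each gene-wise fit. For the share among neurons (-0.81 points), the 96-well title codes gave 0.40, -5.06 and -3.86 points, thinning gave -2.74 and the *Adarb2*-above-*Rgs9* nuclei -1.34, and for the share among GABA neurons (7.73 points) they gave 19.8, -22.2 and -4.61 points, thinning gave -1.63 and the *Adarb2*-above-*Rgs9* nuclei, an alternative chosen after the data were seen, 0.84. Against *Sst*- or *Pvalb*-led nuclei the 2328 calls became 1537 with no filter and 4901 with the mean of log values (26.8% higher, against 47.4%); leaving out any 1 pool gave 1054 to 1403, so each of the 6 pools moved this count by over 1.5 times. Between *Vip*-led and *Lamp5*-led nuclei the 919 calls became 1559 with the mean of log values (57.3% higher, against 30.6%), 1499 with a mean-variance trend (37.4% higher) and 88 with the *Adarb2*-above-*Rgs9* nuclei; leaving out any 1 pool gave 370 to 573. Ehmt1delta/+ against WT gave 0 calls in each alternative with a test, and 1009 genes at unadjusted p below 0.05 with all 6 pools; leaving out a pool leaves no residual degree of freedom. Of the highest and lowest genes and *Adarb2*, some lost a call: against *Sst*- or *Pvalb*-led nuclei *Tac2*, *Moxd1* and *Oprd1* in 11 pool leave-outs and *Moxd1* with no filter; within the members *Adarb2*, *Col24a1* and *Ryr1* in 12 leave-outs, and 10 of these genes with the *Adarb2*-above-*Rgs9* nuclei; calls made only as members of a list are not counted here. None of these genes changed sign. Among others named, with the *Adarb2*-above-*Rgs9* nuclei alone *Rgs9* against *Sst*- or *Pvalb*-led nuclei went from 1.91 to -2.63, which that choice of nuclei favours, and *C1s1* between genotypes from -1.46 to 1.08. The cause of these changes was not tested, beyond fewer pools or nuclei in leave-outs. Recovered depth and 1 pool per genotype and format limit the shares and the genotype comparison.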
